A study of Mus musculus with 9 samples.

Results

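The 35 genes described here encode proteins that copy and divide the genome, and they were chosen by name as a list of cell cycle and mitosis genes. All 35 are in each deposited table, out of 29386 gene identifiers in all. By known role, 23 act in mitosis: 8 are mitotic kinases, cyclins and the transcription factor Foxm1, 4 belong to the spindle checkpoint or the anaphase-promoting complex (APC/C), 3 are centromere or passenger proteins, 6 are spindle motors, microtubule proteins or cytokinesis factors, and 2 are chromosome proteins. The other 12 act before mitosis: 7 license DNA replication, 3 serve the replication fork and nucleotide supply, and 2 control entry into S phase.

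Progress through the cell cycle is driven by cyclin-dependent kinases, whose cyclin partners are made and destroyed in turn. E2F transcription factors switch on the genes for DNA replication at the G1/S boundary, and B-MYB and FOXM1 switch on the mitotic genes later, in G2. Mature brown adipocytes have mostly left the cycle, whereas their precursors, in tissue or in early culture, can divide, as can the immune and endothelial cells of fat.

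The series holds 9 mouse RNA-seq libraries in 3 separate experiments on the loss of SETDB1, an enzyme that methylates histone H3 lysine 9. Brown adipose tissue (BAT) gave 2 libraries of control mice (Setdb1 fl/fl; Adipoq-Cre-) and 2 of Setdb1 AKO mice (Setdb1 fl/fl; Adipoq-Cre+), so all 4 carry floxed Setdb1 and only the second pair carries a Cre driven by the adipocyte gene Adipoq. Primary brown adipocytes of genotype Setdb1 flox/flox; Rosa26Cre-ERT2, whose Cre is activated by 4-hydroxytamoxifen (4-OHT), gave 1 library after 1 μM 4-OHT and 1 after its ethanol vehicle (ETOH). Other primary brown adipocytes gave 1 library with control siRNA (siNC) and 2 with siRNA against Setdb1 (siSetdb1 1 and 2), and both siSetdb1 libraries are compared with the same siNC library. The labels give no age, sex or diet, do not explain the prefix TN_CE of the BAT titles, and do not say whether the siSetdb1 numbers mark separate siRNAs or separate cultures. No library analysed here comes from Cre-positive mice with intact Setdb1 or from Cre-negative cells given 4-OHT, so the effect of Cre or of 4-OHT and that of Setdb1 loss cannot be told apart.

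Libraries held 15979479 to 16940622 reads on genes in BAT, 29911734 in ETOH, 30176359 in 4-OHT and 17593799 to 18468152 in the siRNA experiment. Setdb1 itself stood at 455.0 and 472.8 normalised counts (reads scaled by 1 factor per library) in the control BAT libraries and at 156.4 and 190.9 in Setdb1 AKO. It fell by 1.42 on the log2 scale (SE 0.19, limma adjusted p = 0.0216), with adjusted p of 0.225 and 0.23 when control 1 or control 2 was left out and 0.206 with no filter. In the siRNA cells it stood at 783.5 in siNC and at 370.9 and 399.2 in siSetdb1, -1.02 as a log2 fold change (SE 0.15), and its limma adjusted p of 0.0537 missed the threshold of 0.05 (0.000114 with edgeR, 0.03 with DESeq2, 0.00123 with the filter of 50 and 0.697 with no filter). It had 1070 reads in ETOH and 620 in 4-OHT. Adipocyte markers (7 genes, among them Adipoq, Plin1 and Ucp1) had reads in all 9 libraries, at a sum of 15486 to 21002 RPM (reads scaled to 1000000 reads on genes) in BAT, 6920 and 8535 in ETOH and 4-OHT, and 12695 to 12937 in the siRNA cells.

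The cell cycle genes were scarce in BAT and several-fold more abundant in the cultured cells. Summed over the 35 genes, the level was 135.47 and 135.61 RPM in the control BAT libraries and 137.18 and 144.48 in Setdb1 AKO. It was 449.56 in ETOH and 367.77 in 4-OHT, and 723.57 in siNC, 705.04 in siSetdb1 1 and 551.61 in siSetdb1 2. All 5 libraries of cells thus lay above all 4 of tissue, but tissue and cells come from separate experiments, so culture and experiment cannot be told apart, and in bulk RNA fewer dividing cells and less RNA per cell cannot be told apart either. The mitosis genes differed more than the others: the 23 summed to 26.8 to 34.4 RPM in BAT, against 164.9 and 215.3 in 4-OHT and ETOH and 288.9 to 409.5 in the siRNA cells, whereas the 12 replication and G1/S genes summed to 101.1 to 115.2 RPM in BAT and 202.9 to 314.1 in the cells. The mitosis genes made up 19.8% to 25.4% of the reads of the 35 genes in BAT and 44.8% to 56.6% in the cells.

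**Figure D1:**
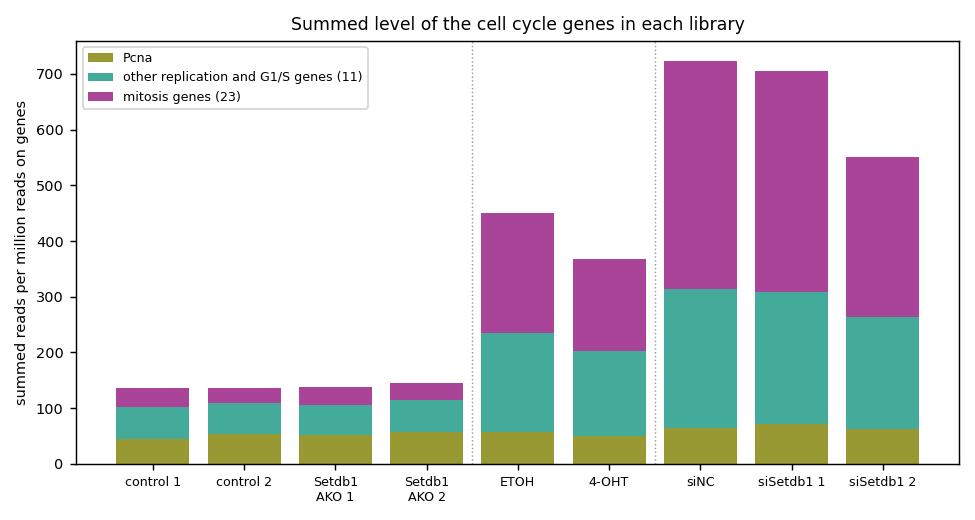
Summed level of the 35 cell cycle genes in each of the 9 libraries, in RPM, split into Pcna, the other 11 replication and G1/S genes and the 23 mitosis genes. The 4 BAT libraries sit between 135.47 and 144.48, and the cells between 367.77 and 723.57, while the Pcna block runs from 44.6 to 70.6.

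Pcna, the sliding clamp that holds DNA polymerase on its template, stood apart from the other genes. Per length, it was the most abundant of the 35 genes in every library, at 18.6 to 23.6 RPKM (RPM per kilobase of gene) in BAT. Pcna lay within that range in ETOH (23.4) and 4-OHT (20.8) and above it in the siRNA cells (25.8 to 29.4). It gave 32.9% to 39.5% of the reads of the 35 genes in BAT and 8.98% to 13.6% in the cells. The next genes in BAT were Cdt1, which loads the replicative helicase, and Mcm7, a subunit of that helicase, at 2.67 to 3.51 RPKM. The median of the 35 genes was 0.301 to 0.427 RPKM in the BAT libraries and 1.74 to 4.51 in the cells. In BAT, 26 to 29 of the 35 genes lay under 1 RPKM in a library, against 2 to 10 in the cells. The kinetochore gene Cenpf had the lowest level per length in all libraries except Setdb1 AKO 2. There Cenpe, a kinetochore motor, had 0 reads of 16057065, for which the upper 95% limit of the expected count is about 3.

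Most of the genes share short sequences in their promoters that the choice by name did not use. Mouse promoters from RefSeq (GRCm38.p6) were searched on both strands, over the 250 bases before each start, for the CCAAT box (CCAAT, bound by NF-Y), for the cell cycle homology region or CHR (TTTGAA or TTCGAA, bound by the DREAM and B-MYB complexes) and for an E2F motif (TTTCCCGC, TTTGGCGC or TTTCGCGC). Of the 35 genes 29 matched by symbol, with 31 promoters. The CCAAT box was in 25 of the 31 (80.6%), against 33.8% of 32851 mouse promoters, and in 89.5% of the 19 promoters of mitosis genes. The CHR was in 47.4% of the mitosis promoters and 16.7% of the 12 replication and G1/S promoters, against 17.1% of all. The E2F motif was in 1 of the 19 mitosis promoters (5.3%) and 3 of the 12 others (25.0%), against 1.5% of all. In 6 of the 31 (19.4%) none of the motifs was found, against 54.2% of all. A match is a description of the letters and not a bound site. The promoters of Plk1, of the mitotic genes Ccnb2 and Cdc20 and of the replication gene Mcm5 are shown because they hold these motifs in different arrangements, each 5′ to 3′ with the motif letters in capitals.
Plk1, chr7:122159185-122159434, plus strand: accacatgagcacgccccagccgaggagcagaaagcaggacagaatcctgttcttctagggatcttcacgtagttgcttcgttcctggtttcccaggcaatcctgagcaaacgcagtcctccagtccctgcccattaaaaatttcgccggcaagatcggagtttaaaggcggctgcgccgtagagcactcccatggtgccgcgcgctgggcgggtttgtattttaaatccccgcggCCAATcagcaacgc
Ccnb2, chr9:70421555-70421804, minus strand: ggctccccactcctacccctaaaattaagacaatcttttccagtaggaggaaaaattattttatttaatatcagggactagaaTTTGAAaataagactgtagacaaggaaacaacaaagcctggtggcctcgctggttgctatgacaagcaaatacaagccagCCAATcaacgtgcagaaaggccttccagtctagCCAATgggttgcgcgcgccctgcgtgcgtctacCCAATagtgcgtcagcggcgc
Cdc20, chr4:118437344-118437593, minus strand: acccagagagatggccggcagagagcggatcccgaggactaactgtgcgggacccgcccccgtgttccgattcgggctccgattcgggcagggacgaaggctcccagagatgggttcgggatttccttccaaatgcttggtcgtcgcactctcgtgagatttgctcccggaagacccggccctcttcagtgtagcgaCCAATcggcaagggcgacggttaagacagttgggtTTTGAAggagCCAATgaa
Mcm5, chr8:75109259-75109508, plus strand: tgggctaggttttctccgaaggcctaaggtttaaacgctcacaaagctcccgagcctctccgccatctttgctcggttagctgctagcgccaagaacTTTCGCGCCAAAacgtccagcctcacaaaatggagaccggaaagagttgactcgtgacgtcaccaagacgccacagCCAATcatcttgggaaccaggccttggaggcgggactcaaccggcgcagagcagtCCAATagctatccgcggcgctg
Plk1 has 1 CCAAT box, 14 to 10 bases before the start, and no other of the motifs in this window. Ccnb2 has 3 CCAAT boxes and a CHR farther upstream, and Cdc20 has 2 CCAAT boxes with a CHR between them. Mcm5 has 2 CCAAT boxes and, upstream of them, E2F motifs on both strands that overlap in 1 run of capitals.

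In BAT, 1 of the 35 cell cycle genes rose with loss of Setdb1, the mitotic kinase gene Plk1, and none fell. Of the 35, 29 passed the filter of 10 normalised counts in at least 2 libraries, and Ccnb1, Aurkb, Bub1, Bub1b, Cenpe and Cenpf did not. Over all 14466 genes tested with limma, 1% were called higher and 0.677% lower at an adjusted p below 0.05. At an unadjusted p below 0.05, 1 of the 29 was higher and 0 were lower, against 8.64% and 9.08% of all genes. The median log2 fold change of the 29 was 0.04, beside 0.01 for all genes tested, with 16 values above 0 and 13 below, where 49.4% of all genes lay below. The labels do not say that libraries of a group came from separate mice or cultures, so p-values speak only of the spread among the libraries at hand.

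Polo-like kinase 1, the product of Plk1, drives entry into mitosis, spindle assembly and cytokinesis. Plk1 stood at 12.8 and 10.1 normalised counts in the control libraries (14 and 10 reads) and at 87.5 and 66.0 in Setdb1 AKO (85 and 64 reads). Both AKO libraries were several-fold above both controls, with a log2 fold change of 2.63 (limma SE 0.38 and adjusted p = 0.0265). In RPKM it moved from 0.376 and 0.285 to 2.33 and 1.81, where the cells had 1.84 in ETOH, 0.995 in 4-OHT and 4.08 to 7.07 in the siRNA experiment. The call was lost without any 1 of the 4 libraries, with limma adjusted p between 0.0876 and 0.206, and without the filter (0.206), while its log2 fold change stayed between 2.30 and 2.83. In the authors' deposited table Plk1 is likewise the only one of the 35 genes with an adjusted p below 0.05, beside 2.54% of all genes.

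Plk1 (ENSMUSG00000030867) lies on the plus strand at chr7:122159439-122169873 (GRCm38). Around it, none of the tested protein-coding genes was called. The nearest on the left, Dctn5, a dynactin subunit gene, had a log2 fold change of 0.43 (limma adjusted p = 0.338). Beyond it, Palb2, the partner and localiser of BRCA2 in DNA repair, had 36 and 14 reads in the controls and 69 and 59 in Setdb1 AKO, with 1.55 as the log2 fold change (SE 0.45) and 0.148 as the limma adjusted p. On the right, Chp2 and Prkcb had log2 fold changes of 0.31 and 0.40. Gm15489, on the minus strand, starts just before Plk1 and runs away from it. It had 1 to 5 reads in each BAT library. Gm44985, on the minus strand inside Plk1, had 0 to 3, and both had far fewer than Plk1 in Setdb1 AKO.

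The partners of Plk1 did not pass the test. Cdk1, the kinase that starts mitosis, stood at 21.1 and 11.2 normalised counts in the controls and 13.4 and 26.8 in Setdb1 AKO, with overlapping groups (log2 fold change 0.29, SE 0.56). Ccnb2, which encodes a B-type cyclin that activates it, stood at 8.3 and 10.1 against 19.6 and 12.4, without overlap (0.71, SE 0.54, limma adjusted p = 0.542). Aurka, the Aurora kinase of the spindle poles, whose product activates PLK1, had a log2 fold change of 0.66 (SE 0.38), with AKO counts of 32.9 and 43.3 above control counts of 24.8 and 22.3. Aurkb, the Aurora kinase of the centromere, was too low to be tested, with 22 and 9 reads in the controls and 4 in each AKO library. Ccna2 (S/G2 cyclin A) had a value of -0.35 and Foxm1 of 0.04, and Ccnb1 had only 5 to 22 reads in a library.

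The other mitosis genes of BAT lay on both sides of 0, and none was called. Cdc20, the activator that lets the APC/C start anaphase, stood at 20.2 and 22.3 normalised counts in the controls and 12.3 and 9.3 in Setdb1 AKO, with a log2 fold change of -0.92 (limma SE 0.48 and adjusted p = 0.372). Ube2c, the ubiquitin-conjugating enzyme of the APC/C, had 13.8 and 27.4 against 30.9 and 19.6, with overlapping groups. The checkpoint kinase gene Bub1 had 1 to 10 reads in a library. Bub1b, too low to be tested, had 15 and 9 reads in the controls and 5 in each AKO library. Among the passenger and kinetochore genes, Birc5, which encodes survivin, had 22.9 and 21.3 normalised counts against 17.5 and 16.5 (-0.36, SE 0.42), Cenpe 0 to 6 reads and Cenpf 2 or 3.

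Prc1, which bundles the microtubules of the central spindle, stood at 31.2 and 26.4 normalised counts in the controls and 20.6 and 7.2 in Setdb1 AKO (-1.16, SE 0.57, limma adjusted p = 0.346). Leaving out Setdb1 AKO 2 gave -0.46, and leaving out Setdb1 AKO 1 gave -1.85. Kif11, the motor that pushes the spindle poles apart, stood at 32.1 and 25.4 normalised counts in the controls and 22.6 and 19.6 in Setdb1 AKO (-0.42). The other members of the spindle group, Kif20a and Kif23 of the central spindle and Tpx2 and Nusap1 of spindle assembly, had log2 fold changes of -0.10 to 0.44, and their groups overlapped. Mki67, which encodes the proliferation marker Ki-67, stood at 85.3 and 46.7 in the controls and at 37.0 and 35.1 in Setdb1 AKO, a log2 fold change of -0.79 (limma SE 0.38 and adjusted p = 0.336). Control 1 was well above the 3 other libraries. Top2a, the topoisomerase that untangles chromosomes, stood at 36.7 and 36.5 against 42.2 and 40.2 (0.17).

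None of the 12 replication and G1/S genes was called in BAT. The 6 subunits of the MCM helicase had log2 fold changes of -0.16 (Mcm6) to 0.27 (Mcm3). Mcm7 stood at 208.2 and 191.8 normalised counts in the controls and 203.7 and 240.4 in Setdb1 AKO, Mcm6 at 108.2 and 87.3 against 82.3 and 91.8, and Mcm4 at 74.3 and 93.3 against 77.2 and 84.6. In all 3 the groups overlapped, as they did for Cdt1 (-0.09). Rrm2, a subunit of ribonucleotide reductase, had 38.5 and 43.6 against 59.7 and 43.3, and Tyms, thymidylate synthase, 40.4 and 60.9 against 67.9 and 52.6, both with overlap. E2f1 stood at 15.6 and 17.2 in the controls and 11.3 and 19.6 in Setdb1 AKO. Ccne1, the cyclin E that fires S phase, stood at 33.9 and 19.3 against 36.0 and 56.7, a log2 fold change of 0.80 (limma SE 0.44 and adjusted p = 0.395).

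Pcna stood at 693.5 and 868.5 normalised counts in the control BAT libraries and 875.7 and 936.8 in Setdb1 AKO, with a log2 fold change of 0.22 (limma SE 0.17 and adjusted p = 0.542). A processed copy of the gene, Pcna-ps2, looked at after its values were seen, had 121, 133 and 140 reads in control 1, control 2 and Setdb1 AKO 1 and 3 reads in Setdb1 AKO 2. Reads of such a copy and of Pcna can be split differently by the counting, and the sum of both was 804.4 and 1003.4 normalised counts in the controls and 1019.7 and 939.9 in Setdb1 AKO, so the groups that did not overlap for Pcna alone overlapped for the sum. In all, 7 of the 29 genes had both AKO libraries above both controls (Plk1, Ccne1, Aurka, Pcna, Ccnb2, Mcm3 and Top2a), against 25.1% of all genes tested. For 5 (Birc5, Cdc20, Kif11, Mki67 and Prc1) both were below, against 24.9%.

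**Figure D2:**
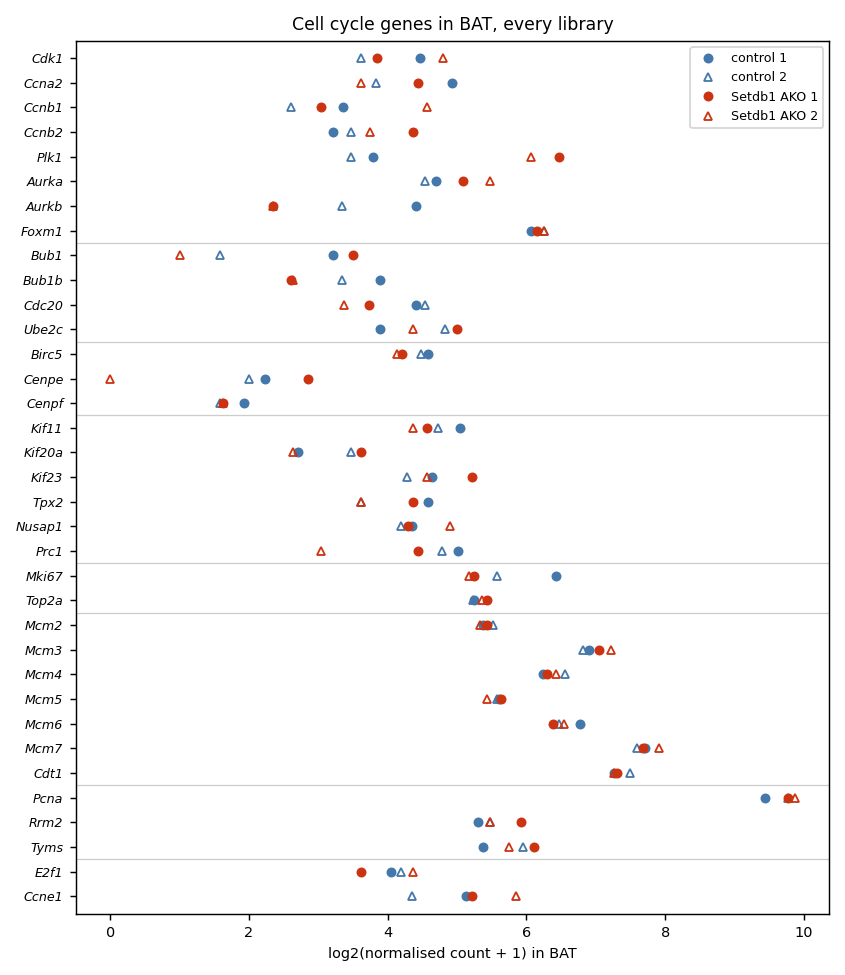
Level of the 35 cell cycle genes in each BAT library, as log2(normalised count + 1), with filled and open symbols for the first and second library of control (blue) and Setdb1 AKO (red) and grey lines between role groups. For Plk1 the 2 AKO libraries (87.5 and 66.0 normalised counts) lie far to the right of the controls (12.8 and 10.1), while for most other genes the colours mix.

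The wider cell cycle lists gave 1 further call in BAT, where 1% of all genes tested were called higher and 0.677% lower. Of 42 other mitosis genes, 21 could be tested and 1 rose, Anln, which encodes the cytokinesis scaffold anillin. It stood at 12.8 and 17.2 normalised counts in the controls and at 87.5 and 138.3 in Setdb1 AKO, both AKO libraries far above the controls (log2 fold change 2.80, SE 0.38, limma adjusted p = 0.0222). Its limma adjusted p lay above the threshold with control 1 left out (0.179), control 2 left out (0.154), Setdb1 AKO 2 left out (0.1) or no filter (0.215). Of 35 other replication genes 32 were tested and none was called; the most abundant, Slbp (histone mRNA binding), Rrm1 (ribonucleotide reductase) and Gins4 (replicative helicase), had log2 fold changes of -0.86, 0.32 and -0.06.

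No gene that restrains or times the cycle was called in BAT. Cdkn1a, the p21 inhibitor of cyclin-dependent kinases, stood at 9025.0 and 9002.4 normalised counts in the controls and 5950.7 and 6377.1 in Setdb1 AKO, without overlap, but its log2 fold change of -0.55 (SE 0.16) had a limma adjusted p of 0.138. The inhibitor genes Cdkn2c and Cdkn1b had values of -0.25 and -0.14. Of the D cyclins and G1 kinases, 0 of 6 were called (Ccnd3 -0.22, Cdk4 -0.27 and Cdk2 -0.50, against Ccnd2 0.68, Cdk6 0.39 and Ccnd1 0.36), and of the E2F, pocket protein and DREAM genes 0 of 16 (Rb1 0.59, Tfdp1 -0.33, E2f4 -0.44). Of the p53 targets, 0 of 14 were called. The p53 target with the highest level, Phlda3, stood at 3603.0 and 4110.1 in the controls and 6416.9 and 7195.2 in Setdb1 AKO (0.82, SE 0.16, limma adjusted p = 0.0613), and Btg2 and Ccng1 had values of 0.68 and 0.10. Gtse1, whose microtubule-bound product binds p53, had a value of 2.18 (SE 0.64, limma adjusted p = 0.149), with 10.1 and 43.6 normalised counts in the controls and 77.2 and 129.0 in Setdb1 AKO.

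Markers of other cell types differed unevenly between these libraries. Of all 14466 genes tested, limma called 1% higher and 0.677% lower, and 49.4% had values below 0. Lymphocyte markers (7 genes) summed to 14.2 and 8.39 RPM in the control BAT libraries and 6.39 and 4.86 in Setdb1 AKO. Like Mki67, they were highest in control 1. Macrophage markers (7 genes) summed to 269.4 and 181.8 against 220.6 and 273.3, with overlap, and 1 of 7 was called higher (Cd14). Of 10 preadipocyte and fibroblast markers 2 were called higher (Pi16 and Pdpn), with sums of 605 to 698 in the controls and 563 to 813 in Setdb1 AKO. Endothelial markers (5 genes) summed to 588 to 716 over the 4 libraries, and 0 of 5 were called. Erythroid markers (6 genes) summed to 529.5 and 587.6 in the controls and 794.2 and 780.6 in Setdb1 AKO, with 5 of 5 tested above 0 and 0 called. Skeletal muscle markers (5 genes) summed to 29.6 in control 2 and to 1.65 to 6.03 in the others. The part of these cells in the values of the cell cycle genes was not tested.

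In the cells given siRNA, none of the 35 genes passed the test, and most had values below 0. All 35 passed the filter, and limma called 0.0328% of 15224 genes higher and 0.00657% lower, so that few genes of any kind were called. At an unadjusted p below 0.05, limma found 0 of the 35 higher and 4 lower, Foxm1, Bub1b, Mcm5 and Ccne1, against 3.02% and 2.04% of all genes. The edgeR quasi-likelihood test also called 0, with 7 lower at an unadjusted p below 0.05, and DESeq2 called 0, with 0 at that level. The median log2 fold change was -0.29, beside -0.00 for all genes, and 32 of the 35 lay below 0, against 50.7% of all genes. The design has 1 siNC library, which was taken to vary like the siSetdb1 libraries, and 1 residual degree of freedom.

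The 2 siSetdb1 libraries differed from each other in these genes. In siSetdb1 2, all 35 genes lay below siNC, against 50.3% of all genes tested, with a median log2 difference of -0.46. In siSetdb1 1, 23 of 35 lay below it, against 49.3%, with a median of -0.09. siSetdb1 2 lay below siSetdb1 1 for 32 of the 35 genes, against 50.2% of all genes, the exceptions being E2f1, Mcm4 and Prc1. Both siSetdb1 libraries lay below siNC for 23 of the 35 genes and above it for 0, against 33.8% and 34.1% of all genes. Setdb1 itself was 1.08 and 0.97 lower than siNC on the log2 scale in siSetdb1 1 and 2.

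**Figure D3:**
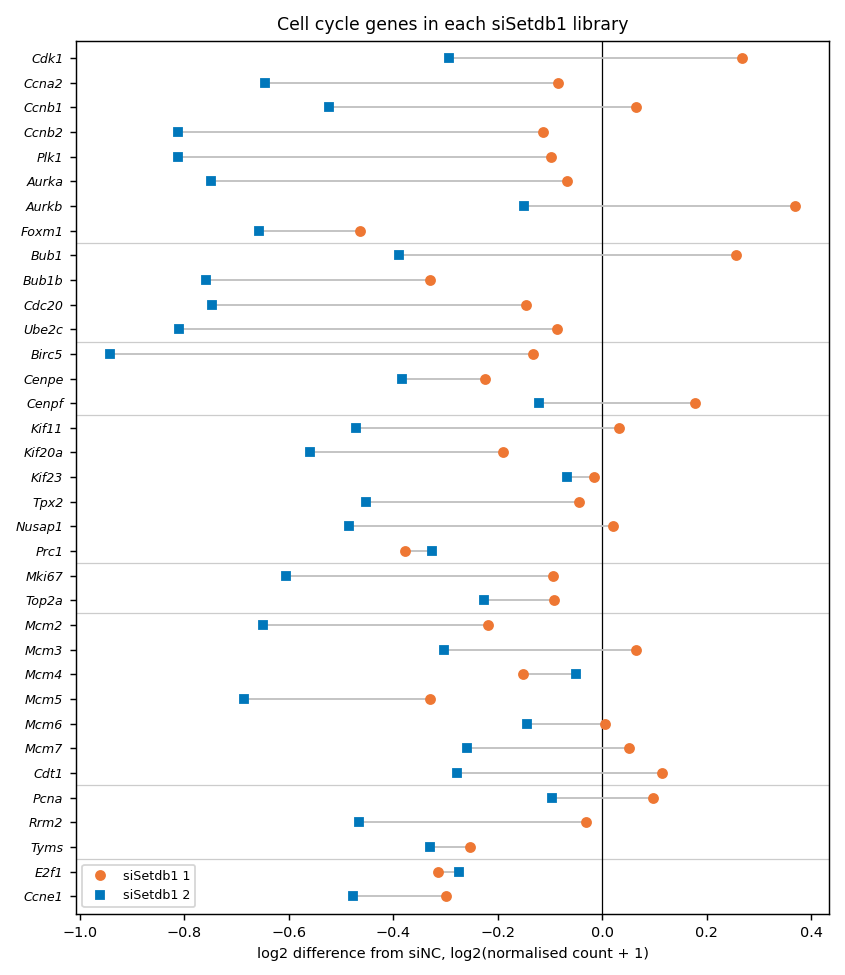
Difference of each siSetdb1 library from the shared siNC library for the 35 cell cycle genes, in log2(normalised count + 1), with a circle for siSetdb1 1 and a square for siSetdb1 2. All 35 squares lie below 0, with a median of -0.46, while the circles lie on both sides, with a median of -0.09.

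Among the mitotic kinases and cyclins, Plk1 stood at 283.2 normalised counts in siNC and 264.5 and 160.9 in siSetdb1 1 and 2. Ccnb2 stood at 236.8, 218.9 and 134.4 in the same order. In both genes siSetdb1 2 was far below the other libraries, and the fitted log2 fold changes were -0.46 (SE 0.27) and -0.46 (SE 0.27). Cdk1, at 490.4 in siNC and 590.8 and 400.2 in siSetdb1, had siNC in between (-0.01), as did Ccnb1 and Aurkb. Foxm1, the factor that drives G2 and M genes, was the one of this group with both siSetdb1 libraries well below siNC, at 242.2 and 211.8 against 334.5 (-0.56, SE 0.19, limma adjusted p = 0.938). Aurka had a value of -0.41 and Ccna2 of -0.37.

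The checkpoint genes had values of -0.07 (Bub1) to -0.54 (Bub1b). Bub1b, a kinase-like protein that holds back the APC/C, stood at 315.8 in siNC and at 251.3 and 186.4 in siSetdb1. Cdc20 stood at 468.7 in siNC and at 423.6 and 279.0, and Ube2c at 402.6 against 379.0 and 229.1. All 3 were lower in both siSetdb1 libraries, more so in siSetdb1 2. Birc5 stood at 425.3, 388.1 and 221.0 in siNC, siSetdb1 1 and 2 (-0.54, SE 0.27), the widest gap of any of the genes in siSetdb1 2 (-0.94). Cenpe stood at 171.7, 146.9 and 131.4, and Cenpf at 145.1, 164.2 and 133.4, with siNC in between.

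Spindle genes had fitted values of -0.04 (Kif23) to -0.37 (Kif20a). Tpx2, which activates Aurora A on the spindle, stood at 425.3 normalised counts in siNC and 412.4 and 310.6 in siSetdb1 1 and 2. Kif20a, a motor of cytokinesis, stood at 241.8, 211.8 and 163.9, and Kif11 at 231.9, 237.1 and 167.0. siSetdb1 2 was the lowest library in all 3. Nusap1 and Prc1 had values of -0.23 and -0.35. Mki67 stood at 708.5, 663.8 and 465.4 (-0.35, SE 0.19), and Top2a at 833.8, 782.3 and 712.8 (-0.16, SE 0.14).

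The 12 replication and G1/S genes had a median of -0.18 (-0.10 for the 7 licensing genes, -0.25 for the 3 fork and nucleotide genes and -0.34 for the 2 G1/S genes), beside -0.35 for the 23 mitosis genes. Mcm5 was the lowest of them, at 403.6 normalised counts in siNC and 321.2 and 250.5 in siSetdb1 (-0.51, SE 0.19, limma adjusted p = 0.939). Mcm7 stood at 1087.4, 1126.9 and 908.3 in siNC, siSetdb1 1 and 2, Mcm6 at 515.1, 516.8 and 466.4, and Mcm4 at 367.1, 330.4 and 354.4. Mcm2 had a value of -0.43, Mcm3 of -0.12 and Cdt1 of -0.08. Pcna, at 1184.2 in siNC and 1267.7 and 1107.9 in siSetdb1, had siNC in between (0.00, SE 0.13), with 4 to 10 reads of Pcna-ps2. Rrm2 stood at 486.5, 476.3 and 352.3, and Tyms at 279.3, 234.1 and 222.0. E2f1 stood at 172.7, 138.8 and 142.6 (-0.29), and Ccne1 at 463.8, 377.0 and 333.0 (-0.39, SE 0.17).

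Of the wider lists in the siRNA cells, 40 of 42 other mitosis genes lay below 0 and 0 were called, with a median of -0.27. Of all genes tested, 50.7% lay below 0. The 42 genes summed to 616.3 RPM in the 1 siNC library and to 598.8 and 485.3 in siSetdb1 1 and 2, so most of the gap was in siSetdb1 2. The most abundant were Hjurp, the chaperone that places centromeric histone (-0.14), and the condensin subunit genes Ncapd2 (-0.32) and Smc4 (-0.06). Of 35 other replication genes, 23 lay below 0, with a median of -0.09 and 0 called (Rrm1 -0.23, Orc6 0.18, Slbp 0.21). The CDK inhibitors had a median of 0.02 (Cdkn2c -0.27, Cdkn1a -0.20, Cdkn1b 0.07), the E2F, pocket protein and DREAM genes -0.04 (Tfdp1 -0.04, Rb1 0.05, Rbl2 0.16) and the p53 targets -0.00 (Phlda3 -0.14, Ccng1 -0.15, Mdm2 0.09), with 0 called in each. The D cyclins and G1 kinases had a median of -0.24, with 0 of 6 called (Cdk4 -0.22, Ccnd3 -0.26, Ccnd2 0.22). Macrophage markers, 7 of 7 below 0 and 0 called, summed to 46.8 RPM in siNC and to 24.6 and 21.8 in siSetdb1 1 and 2. The part of these cells in the cell cycle values was not tested.

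In the cells given 4-OHT, most of the 35 genes were lower than with ETOH, by little. The experiment has 1 library per group, so there is no test, and the intervals given cover counting error only. Of the 35 genes, 29 had a log2 ratio (4-OHT over ETOH, of scaled CPM, counts per 1000000 counts) below 0, against 48.3% of 13969 genes, and the median was -0.27, beside 0.01 for all genes. The summed level had a log2 ratio of -0.22 (95% counting interval -0.26 to -0.19). Lower by more than 1.5-fold were 3 of the 35 (Plk1, Birc5 and Mki67) and higher 0, against 6.12% and 4.21% of all genes. For 19 genes the counting interval lay below 0, and for 0 above it. With scaling by total counts, 32 of the 35 ratios lay below 0, against 58.7% of all genes, and 5 were lower by more than 1.5-fold.

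Plk1 had the lowest ratio, with 121 reads in ETOH and 66 in 4-OHT (-0.80, interval -1.28 to -0.38), and Birc5 the next, with 148 and 89 (-0.67). Mki67, with 1304 and 825 reads, had the narrowest interval of the 3 (-0.61, -0.73 to -0.48). Cdk1 went from 369 reads in ETOH to 259 in 4-OHT (-0.45), and Ccnb2 from 166 to 108 (-0.56). Cenpe, with 208 and 138 reads, and Kif20a, with 192 and 130, had ratios of -0.53 and -0.50, followed by Prc1 (-0.45), Nusap1 (-0.40), Kif11 (-0.37) and Ccna2 (-0.36). Top2a had 886 and 767 reads (-0.15, interval -0.30 to -0.01).

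The rest of the mitosis genes had intervals that include 0. Tpx2 had 260 and 216 reads (-0.21) and Foxm1 383 and 354 (-0.06). Aurka and Aurkb had ratios of -0.15 and 0.03, Ccnb1 of -0.20, Bub1 of -0.27, Kif23 of -0.17 and Cenpf of -0.04. Cdc20, with 201 reads in ETOH and 191 in 4-OHT (-0.02), differed little between the libraries. Ube2c, with 70 and 81, and Bub1b, with 106 and 126, had ratios above 0 (0.26 and 0.30).

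Among the replication genes, Mcm5 had the lowest ratio (-0.48, 250 and 172 reads), and Mcm6 (787 and 600 reads, -0.34) and Mcm4 (574 and 443 reads, -0.32) also had intervals below 0, as did Cdt1 (-0.29) and Mcm3 (-0.24). Mcm2 had a ratio of -0.27 with an interval reaching 0.00, and Mcm7, with 868 and 851 reads, one of 0.02. Pcna had 1681 reads in ETOH and 1507 in 4-OHT (-0.10, interval -0.21 to -0.00), Rrm2 943 and 947 (0.06) and Tyms 278 and 240 (-0.16). E2f1 had 464 and 349 reads (-0.36), whereas Ccne1 had 247 and 280 (0.23, interval -0.02 to 0.49).

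Markers of other cell types also differed between these libraries. Of all 13969 genes, 48.3% had a ratio below 0, and 6.12% were lower and 4.21% higher by more than 1.5-fold. Macrophage markers, 7 of 7 below 0, summed to 3411 RPM in ETOH and 1882 in 4-OHT. Preadipocyte and fibroblast markers, 6 of 8 below 0, summed to 12405 and 10844, and adipocyte markers, 7 of 7 above 0, to 6920 and 8535. The part of these cells in the cell cycle values was not tested. Of 38 other mitosis genes measured, 32 lay below 0, 5 by more than 1.5-fold (Cdca8, Ckap2l, Ncaph, Ckap2 and Nuf2, at -0.76 to -0.59), and 1 was higher by more than that (Cks2, a subunit of CDK complexes, 0.62). The most abundant of them, Hjurp (-0.04), Smc4 (0.12) and Ncapd2 (-0.17), were near 0. Of 33 other replication genes, 21 lay below 0 and 2 by more than 1.5-fold, Gins1 (-1.03) and Uhrf1 (-0.62), near the share of all genes. The most abundant, Rrm1, Slbp and Orc6, had ratios of 0.21, -0.03 and -0.05. Of the 7 CDK inhibitor genes 5 lay above 0 and 2 below, and 0 were past 1.5-fold. Cdkn1a, Cdkn1b and Cdkn2b had ratios of 0.27, 0.12 and 0.07, and Cdkn2c, with 1168 and 858 reads, -0.39. Ccnd2, Cdk6 and Ccnd1 had ratios of 0.15, -0.34 and -0.01, Rb1, Rbl2 and Tfdp1 of 0.26, -0.07 and -0.26, and the p53 targets Ccng1, Phlda3 and Trp53inp1 0.11, 0.41 and 0.22. Of the 14 p53 targets measured, 7 lay above 0 and 7 below, with a median of 0.00, and 1 was higher by more than 1.5-fold, Bbc3, which encodes the cell death protein PUMA (542 and 870 reads, 0.73).

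**Figure D4:**
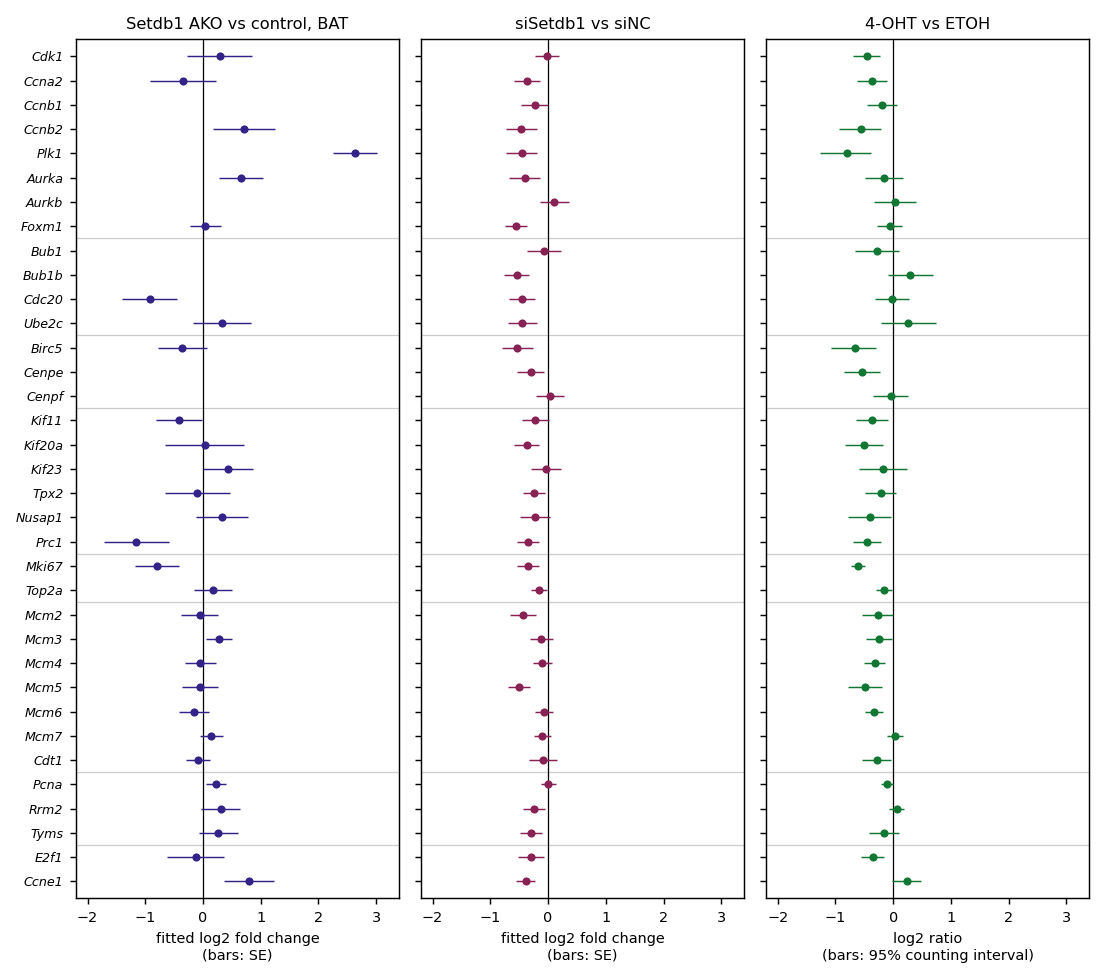
Log2 change of each of the 35 cell cycle genes with loss of Setdb1 in BAT, siRNA cells and 4-OHT cells, with bars for the SE (BAT, siRNA) or the 95% counting interval (4-OHT), and grey lines between role groups. Genes with no point in BAT did not pass the filter. Plk1 lies at 2.63 in BAT and at -0.46 and -0.80 in the cells, and most other points in the cells lie a little below 0.

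Side by side, Plk1 had log2 values of 2.63 in BAT, -0.46 in the siRNA cells and -0.80 in the 4-OHT cells, and Anln of 2.80, -0.32 and -0.08. Of the 29 genes tested in both, 5 (Ccnb2, Plk1, Aurka, Top2a and Ccne1) had both AKO libraries above both controls in BAT and both siSetdb1 libraries below siNC, against 7.52% of 13413 genes. The opposite held for 0, against 7.44%, which was fixed beforehand, since 0 of the 35 lay above siNC in both siSetdb1 libraries. Taken alone, the BAT pattern held for 7 of the 29, against 25.1% of all genes. The siRNA pattern alone held for 23 of the 35, against 33.8%, so the joint count mainly restates the siRNA values. Mki67 was below 0 in all 3 experiments, at -0.79, -0.35 and -0.61. Each of the 13 genes below 0 in BAT was likewise below 0 in both cell experiments. With siRNA 32 of the 35 genes lay below 0, and with 4-OHT 29. The share of all genes below 0 in all 3 experiments is not given here. Pcna had values of 0.22, 0.00 and -0.10, Mcm7 of 0.15, -0.10 and 0.02, and Top2a of 0.17, -0.16 and -0.15. In the authors' deposited tables, 0 of the 35 genes had an adjusted p below 0.05 in the cells, whether given 4-OHT, siSetdb1 1 or siSetdb1 2, beside 0.221%, 0.00984% and 0.0294% of all genes. The 4 promoters printed above all hold CCAAT boxes. Plk1 and Ccnb2 had log2 values of 2.63 and 0.71 in BAT, whereas Cdc20 and Mcm5 had -0.92 and -0.06. In the siRNA cells Plk1 and Ccnb2 had -0.46 each, Cdc20 -0.45 and Mcm5 -0.51. A link between the motif and these values was not tested.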

How the data were processed

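Members, roles, gene lists and tests were chosen with earlier results of these data known. Libraries were made from oligo(dT)-enriched RNA with an NEBNext Ultra II kit and read on a NovaSeq, per the labels. Tools named, with no role or order, are Trimmomatic 0.39, STAR 2.7.10a, featureCounts 2.0.3 and DESeq2 1.36.0 with GRCm38 (mm10), per the submitters' processing notes. The annotation release, strand setting and handling of reads with several matches are not given in the sources used here.

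For BAT and siRNA the authors deposited a scaled signal in which every library's read counts are multiplied by its own constant. Dividing by that constant gave whole reads for 100% of values within 0.05. The deposited 4-OHT table holds raw counts per gene, which were used, and an FPKM by the authors, which was not. Deposited log2 fold changes and p-values of the authors serve only where named as theirs. The siRNA tables were joined through siNC, identical in 19381 shared genes (link factor 1.0024), into 21321 genes. RPKM was computed from reads, library totals and the gene length per the file headers.

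Tests used limma 3.58.1 (lmFit, eBayes with trend) on log2(normalised count + 1), with Benjamini-Hochberg adjustment over all genes with at least 10 normalised counts in 2 BAT libraries or 1 siRNA library. Fold changes on this scale understate those of low genes. Ratios for 4-OHT came from TMM-scaled CPM (edgeR 4.0.16) with a prior count of 2, where either library had at least 50 counts. Alternatives were pseudocounts of 0.5 and 5, other filters, edgeR, DESeq2 1.42.0, a replicate block, other scalings and each library left out. The fits were tested on simulated data. All 35 genes are accounted for. Values in every library are given for those called, the 3 most abundant of each role in the cells per length, Mki67, Cdk1 and Pcna. Exceptions include Tpx2, Kif20a, Cenpe and Cenpf in BAT and Kif11 and Cenpf in 4-OHT, given as ranges or ratios only. From each wider list the called genes are named, otherwise the 3 with the highest mean level; any other gene was picked once its values were known.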

Additional observations from a re-analysis of the deposited data

Results flagged for a closer look

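In 5 of the 29 genes tested in both experiments, both Setdb1 AKO libraries of BAT lay above both controls, while both siSetdb1 libraries lay below siNC. Of all 13413 genes tested in both, 7.52% show this pattern. In BAT alone, 7 of the 29 lay above, against 25.1% of all genes. In the siRNA cells alone, 23 of the 35 lay below, against 33.8%, so the joint count mainly restates the siRNA values. Anln, called in BAT and taken from the wider mitosis list, shows it too, but the other genes of the wider lists are not counted here. The log2 fold changes in BAT were 2.63 for Plk1, 2.80 for Anln, 0.80 for Ccne1, 0.71 for Ccnb2, 0.66 for Aurka and 0.17 for Top2a. In the siRNA cells they were -0.46, -0.32, -0.39, -0.46, -0.41 and -0.16 in the same order. The difference between tissue and cells was not tested, since they are separate experiments. In the 4-OHT cells the log2 ratios of these genes were -0.80, -0.08, 0.23, -0.56, -0.15 and -0.15.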

How the results depend on the processing

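In BAT, Plk1 was the 1 of the 35 genes called with either pseudocount, with the filter of 50, with edgeR and with DESeq2, and 0 were called with no filter. Leaving out 1 library at a time also gave 0 called (lowest 0, highest 0), with the lone library of a group taken to vary like the other group. The median log2 fold change, 0.0433, was -0.0431 with no filter (35 genes), 0.147 with the filter of 50 (9 genes), 0.0919 with edgeR and 0.0802 with DESeq2, and ranged from -0.00508 to 0.104 with each library left out. Same-numbered BAT libraries share only a number (their deviations from the group means had r = -0.015 across 14466 genes, which are not independent replicates). With the replicate block, 1 gene was called and the median was 0.0433; over all genes the block gave 181 higher and 118 lower calls, against 145 and 98. Calls over all genes were 364 higher and 287 lower with DESeq2 and 11 and 0 with no filter. In the siRNA cells 0 of the 35 were called under any setting with a test, while leaving out siSetdb1 1 or 2 (which leaves no residual degree of freedom and no test) gave medians of -0.464 and -0.0869. Calls over all genes there were 5 higher and 1 lower, 29 and 8 with edgeR, 22 and 7 with the filter of 50 and 0 and 0 with no filter. In 4-OHT, total counts scaling gave 5 genes past 1.5-fold, a median of -0.335 and a summed ratio of -0.29. Single genes changed sign when 1 library was left out, 2 to 6 of those tested in BAT. In the siRNA cells 9 moved from below to above 0 without siSetdb1 2 (Cdk1 from -0.0123 to 0.268, Ccnb1, Bub1, Kif11, Nusap1, Mcm3, Mcm6, Mcm7 and Cdt1), and Aurkb, Cenpf and Pcna to below 0 without siSetdb1 1. With edgeR and DESeq2, 1 siRNA value, that of Cdk1, changed sign. Most of the 35 genes had under 50 normalised counts in BAT, where 6 could not be tested.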

Other observations

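Anln, the other mitotic gene that rose in BAT, lies on the minus strand at chr9:22332012-22389188 (GRCm38), beside a row of zinc finger genes. Zfp809, Zfp599 and Zfp810 had log2 fold changes of 0.51 (SE 0.22), 2.50 (SE 0.83) and 1.20 (SE 0.52) in BAT, with limma adjusted p of 0.285, 0.183 and 0.289, so none was called. Zfp599 had 10 and 1 reads in the controls and 21 and 27 in Setdb1 AKO. On the other side, Rp9 had a value of 0.01, and 9530077C05Rik, which overlaps it and was too low to be tested, had 0 and 1 reads in the controls and 15 and 7 in Setdb1 AKO.

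The Pcna copy Pcna-ps2 (ENSMUSG00000067608), at chr19:9283238-9284494, split the BAT libraries across the groups: 111.0, 134.9 and 144.1 normalised counts in control 1, control 2 and Setdb1 AKO 1, and 3.1 in Setdb1 AKO 2. All 5 libraries of cells had 4 to 12 reads of it, beside 1088 to 1681 reads of Pcna. Ccnb1-ps, a copy of the cyclin B1 gene, had 5 reads in Setdb1 AKO 2 and 0 in the other BAT libraries.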
